A study of Mus musculus with 24 samples.

Results

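Transcripts of 42 extracellular matrix and stellate cell genes were followed in 24 RNA-seq libraries of mouse liver and brain. The members were the rows of the count files that carry the 42 listed gene symbols, out of 55797 gene names in each file, and all 42 symbols were found. The list holds collagens, proteoglycans, elastic and fibronectin fibre proteins, collagen crosslinking enzymes, matrix proteases with their inhibitors, matricellular proteins, and genes used to recognise hepatic stellate cells and contractile myofibroblasts. All mice were male C57/BL6 with a treatment entry of 16 weeks. Liver and brain each gave 6 libraries of db/db mice, whose copies of the leptin receptor gene Lepr are both defective, and 6 of db/+ mice, which carry the same mutation on 1 copy. The 6 of a genotype were 2 each on water, on sucrose and on brazzein, a sweet-tasting plant protein. The receptor is defective in every tissue of db/db mice, so a difference seen in liver or brain cannot be assigned to that tissue. The question was what brazzein and sucrose do to the health of both organs in this model.

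Hepatic stellate cells lie between hepatocytes and the sinusoidal endothelium, where they store retinyl esters made by the enzyme LRAT. When activated, they lose these stores, take on contractile proteins such as alpha-smooth muscle actin, and secrete the fibrillar collagens, crosslinkers and protease inhibitors that build scar tissue. TGFB1 and PDGF, acting through PDGFRB, are the best known signals for this change. In brain, most fibrillar and basement membrane collagen comes from cells of the vessel wall and the meninges, while astrocytes are a main source of the matricellular proteins SPARC and SPARCL1.

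Total expected counts per library ran from 60384569 to 79385804 in liver and from 58287665 to 77772849 in brain. The labelled tissues carried their defining markers. Alb, the hepatocyte serum protein, had 42529 to 76804 CPM (counts scaled to library size) in liver and at most 4.82 CPM in brain, and Snap25, a neuronal synapse gene, was listed at 0 in every liver library and had 2684 to 2866 CPM in brain. Replicate libraries correlated at 0.975 to 0.978 across brain genes (log2 CPM). In liver the correlation was 0.951 and 0.954 for db/db mice on water and sucrose, 0.918 and 0.927 for db/+ mice on water and sucrose, and lowest in the brazzein groups, at 0.900 in db/db and 0.886 in db/+ mice. Lepr had 0.690, 1.502 and 2.50 CPM (lowest, median and highest of 6) in db/db livers, against 1.90, 4.71 and 18.9 CPM in db/+ livers. A gene count adds up all receptor isoforms and so cannot check the mutation.

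The upstream sequences of 4 members are shown because the results below turn on these genes and the RefSeq tables hold a start for each. The 250 bases before the start are written 5′ to 3′ on the gene's strand, from the RefSeq tables on GRCm38.p6, a build other than the GRCm39 of the counts. Capitals mark matches, on either strand, to the TATA box letters TATAAA, the CCAAT box, the AP-1 letters TGANTCA, the GC box letters GGGCGG and the SMAD-type letters CAGAC.
Timp1: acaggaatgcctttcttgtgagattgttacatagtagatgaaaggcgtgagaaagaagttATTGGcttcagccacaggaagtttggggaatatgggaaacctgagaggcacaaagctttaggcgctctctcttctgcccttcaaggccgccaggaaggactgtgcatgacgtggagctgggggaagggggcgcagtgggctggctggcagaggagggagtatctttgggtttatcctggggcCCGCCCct
Postn: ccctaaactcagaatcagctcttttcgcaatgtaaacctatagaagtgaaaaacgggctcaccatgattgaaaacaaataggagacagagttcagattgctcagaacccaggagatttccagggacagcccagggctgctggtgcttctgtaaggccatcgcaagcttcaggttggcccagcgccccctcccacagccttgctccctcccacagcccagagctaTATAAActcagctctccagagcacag
Sparc: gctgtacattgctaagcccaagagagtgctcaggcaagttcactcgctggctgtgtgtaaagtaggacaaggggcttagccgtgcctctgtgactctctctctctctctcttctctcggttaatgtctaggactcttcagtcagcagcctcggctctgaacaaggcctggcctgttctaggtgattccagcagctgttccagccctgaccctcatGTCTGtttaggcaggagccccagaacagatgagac
Lamb3: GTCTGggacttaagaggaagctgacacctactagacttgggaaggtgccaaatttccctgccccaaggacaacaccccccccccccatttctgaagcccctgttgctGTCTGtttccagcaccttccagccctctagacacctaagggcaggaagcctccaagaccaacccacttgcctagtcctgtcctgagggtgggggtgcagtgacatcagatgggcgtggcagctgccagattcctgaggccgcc
These stretches are chrX:20869916-20870165 on the plus strand for Timp1, chr3:54360857-54361106 on the plus strand for the second of 2 Postn starts, chr11:55420081-55420330 on the minus strand for Sparc, and chr1:193301744-193301993 on the plus strand for the first of 2 Lamb3 starts. Of the 42 members, 27 had a window, with 30 windows in all. TATAAA was found in 4 of these 27 genes, Col3a1, Postn, Thbs2 and Vim, against 12.4% of all 32851 windows of this length in the table. In Postn it lies 26 to 21 bases before the start. CCAAT was found in 9 of the 27 genes and 33.8% of all windows, GGGCGG in 15 and 32.7%, CAGAC in 13 and 42.2%, and TGANTCA in Col6a1 alone among the 27 and in 6.75% of all windows. A match is a run of letters, not a shown binding site. The 2 collagen IV genes Col4a1 and Col4a2 start 21 bases apart on opposite strands of chromosome 8.

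Per transcript length, the members covered a wide range of levels in liver. Fibronectin, Fn1, which hepatocytes also secrete, stood highest, at 71.9 ± 12.7 FPKM in db/db and 58.2 ± 4.94 FPKM in db/+ livers (SD, n = 6 each). Its ratio of counts to FPKM, which tracks the assigned transcript length, varied by a factor of 1.82 across 10 livers. In counts, Fn1 was not called between genotypes. The collagen-binding proteoglycan decorin, Dcn, followed at 69.1 ± 14.7 FPKM in db/db and 55.2 ± 16.1 FPKM in db/+ livers. Col1a1 ranked 24 of 42 in db/db livers at 0.938 ± 0.240 FPKM and 31 of 42 in db/+ livers at 0.315 ± 0.0931 FPKM. Acta2, alpha-smooth muscle actin, ranked 33 of 42 in both genotypes. The classical scar collagen and the myofibroblast actin were therefore low transcripts in these livers of either genotype.

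Over the 3 drinks, db/db livers had higher levels of 12 members and lower levels of 2 than db/+ livers. All 42 passed the filter on low counts, and 28 were not called. The background was 7.91% of 19352 tested genes called higher and 7.27% called lower. The higher members were the basement membrane collagens Col4a1, Col4a2 and Col15a1, the fibrillar collagen Col1a1, the fibril-associated collagen Col14a1, the crosslinker Loxl2, the protease inhibitors Timp1 and Timp3, the matricellular genes Postn and Sparc, the smooth muscle gene Tagln and the intermediate filament gene Vim. The lower members were the laminin chain Lamb3 and the muscle-type filament gene Des. The median log2 difference of the 42 was 0.19, with 27 of 42 above 0, against a median of -0.03 and 47.8% above 0 over all tested genes. By drink, the median of the 42 was 0.05 on water, 0.08 on sucrose and 0.59 on brazzein, with 23, 23 and 36 above 0. All tested genes had medians of -0.03, -0.003 and -0.03 there, with 48.3%, 49.7% and 47.9% above 0. Over the 3 drinks, 21 members and 31.6% of all genes had an unadjusted p under 0.05, and DESeq2 called 16 members and 21% of all genes. In CPM, the lowest db/db library stood above the highest db/+ library for Col1a1, Col4a1, Col4a2, Loxl2, Postn, Sparc and Timp1. Of all tested genes, 4.91% separated in that direction and 3.51% in the other. With library sizes left unscaled by TMM, the median of all genes moved by 0.16 (log2), 72.5% instead of 52.1% of all called genes were higher, and the fitted values of Fn1, Eln, Serpinh1 and Pdgfra changed sign, none of which was called. In bulk tissue, fewer cells of a type and less RNA per cell cannot be told apart.

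**Figure D1:**
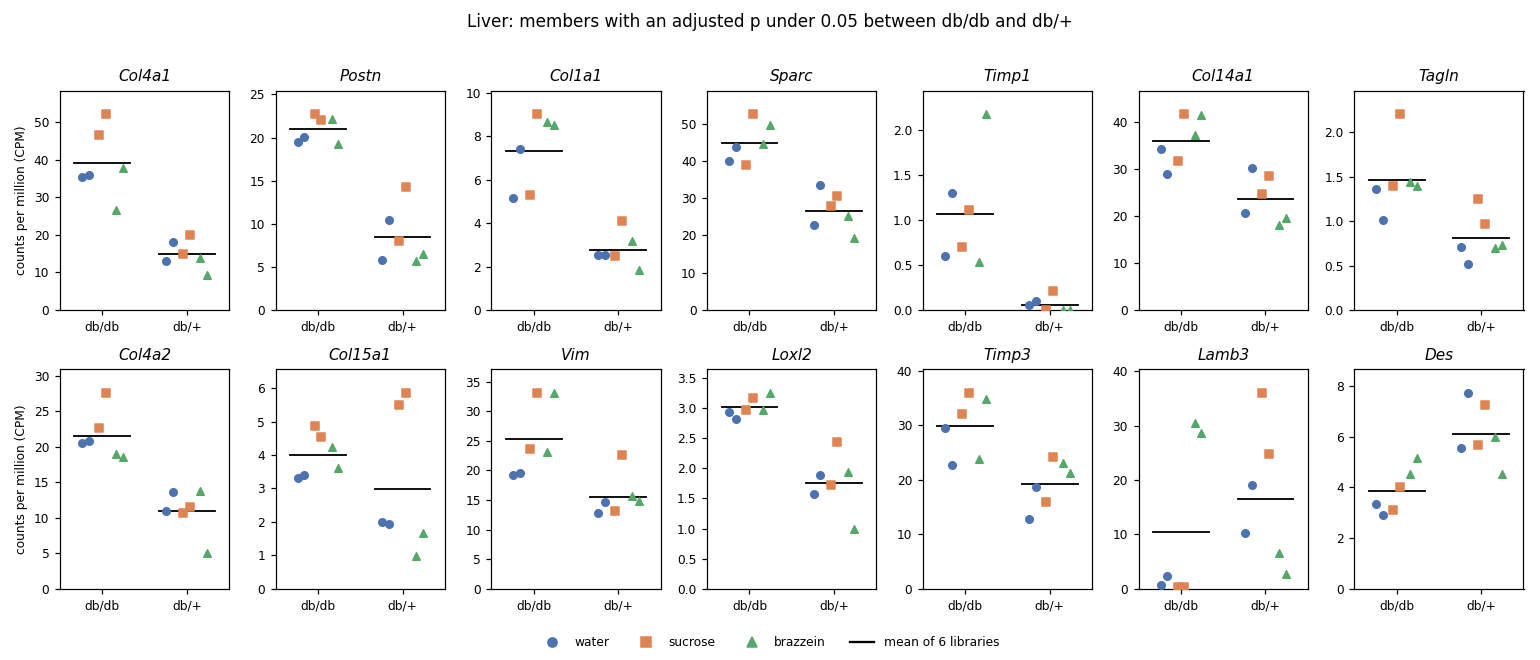
CPM (y axis, from 0) in each of 12 liver libraries for the 14 members called between genotypes, db/db left of db/+, with points coloured by drink and a line at the mean of 6 libraries. Lamb3 is high in the db/db livers on brazzein and low in the other db/db livers, and Timp1 is at or near 0 in every db/+ liver.

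Of the 4 basement membrane members, Col4a1, Col4a2 and Col15a1 rose in db/db livers and Lamb3 fell. Col4a1 and Col4a2 encode the chains of the collagen network that underlies vessels and sinusoids. Col4a1 had 26.5, 36.9 and 52.2 CPM in db/db livers, against 9.33, 14.4 and 19.96 CPM in db/+ livers (log2 difference 1.39, SE 0.17, edgeR adjusted p = 0.00252). Col4a2 had 18.6, 20.7 and 27.6 CPM in db/db livers, against 5.01, 11.2 and 13.8 CPM in db/+ livers (0.98, SE 0.23, edgeR adjusted p = 0.0282). Neither gene's groups overlapped, and the lowest db/+ library was the second on brazzein for both. Col15a1, a collagen of the zone between basement membrane and stroma, had 3.30, 3.92 and 4.86 CPM in db/db livers, against 0.986, 1.96 and 5.86 CPM in db/+ livers (0.69, SE 0.17, edgeR adjusted p = 0.0294). Its groups overlapped because the 2 db/+ livers on sucrose held the highest values of all 12.

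Of the 5 fibrillar collagens, Col1a1 passed the test and Col1a2 lay just outside it. Col1a1 had 5.16, 7.97 and 9.03 CPM in db/db livers, against 1.84, 2.52 and 4.11 CPM in db/+ livers (log2 difference 1.40, SE 0.24, edgeR adjusted p = 0.00844). Its partner chain in type I collagen, Col1a2, had 6.44, 17.9 and 22.4 CPM in db/db livers, against 6.34, 7.55 and 11.4 CPM in db/+ livers, and missed the threshold (0.94, SE 0.27, edgeR adjusted p = 0.0534). The lowest db/db value of Col1a2 belongs to the first library on water, and without that library the call was made. Col1a2 was also called with library size alone, with the replicate number as a block, with DESeq2 and in the fit of all 24 libraries. Col3a1, the type III chain that accompanies type I in scars, had 2.24, 13.1 and 21.1 CPM in db/db livers, against 4.81, 7.94 and 12.7 CPM in db/+ livers (0.28, SE 0.26, edgeR adjusted p = 0.513). Its lowest and highest libraries were both db/db, on brazzein and on sucrose. The type V chains, which seed collagen fibrils, differed by -0.21 (SE 0.14) for Col5a1 and 0.10 (SE 0.21) for Col5a2 on the log2 scale.

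Col14a1, which sits on the surface of collagen fibrils and is expressed by fibroblasts, had 28.9, 35.6 and 41.6 CPM in db/db livers, against 18.0, 22.6 and 30.1 CPM in db/+ livers (log2 difference 0.62, SE 0.13, edgeR adjusted p = 0.02005). The collagen VI chains, which form beaded microfilaments around cells, gave log2 differences of -0.27 for Col6a1, 0.00 for Col6a2 and -0.37 for Col6a3, and none passed. Among the small leucine-rich proteoglycans, which bind collagen and set fibril width, Lum, Dcn and Bgn differed by -0.17, 0.18 and 0.44 on the log2 scale without a call. The fibre proteins fibrillin, Fbn1, fibronectin, Fn1, and elastin, Eln, differed by 0.44, -0.07 and -0.13, also without a call. Loxl2, which crosslinks collagen, had 2.82, 2.97 and 3.25 CPM in db/db livers, against 0.995, 1.81 and 2.44 CPM in db/+ livers (0.79, SE 0.20, edgeR adjusted p = 0.0366). Its relatives Lox and Loxl1 and the collagen chaperone Serpinh1 differed by 0.15, 0.14 and 0.00 on the log2 scale and were not called.

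Timp1, a secreted inhibitor of matrix metalloproteinases and a common marker of liver injury, showed the widest gap. It had 0.540, 0.905 and 2.18 CPM in db/db livers, against 0, 0.0253 and 0.208 CPM in db/+ livers. In counts, the db/db livers held 41 to 149 and the db/+ livers 0 to 15, with 3 of 6 db/+ libraries listed at 0. The fitted log2 difference was 5.41 (SE 0.96, edgeR adjusted p = 0.0136). Both db/+ livers on brazzein were at 0, so that value depends on the prior count and sets no bound. Timp1 lies within the neuronal gene Syn1, which had at most 0.536 CPM in any liver library, and the libraries do not mark strand.

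Timp3, an inhibitor bound to the matrix itself, had 22.7, 30.8 and 35.9 CPM in db/db livers, against 12.7, 19.96 and 24.2 CPM in db/+ livers (log2 difference 0.63, SE 0.17, edgeR adjusted p = 0.0437). It lies within Syn3, which had 9.74 CPM in the first db/db library on brazzein, 4.50 CPM in the first db/+ library on water and at most 0.430 CPM in the other livers. Timp2, the inhibitor that also helps activate MMP2, differed by 0.00 (SE 0.16), and the proteases Mmp2 and Mmp14 by -0.56 (SE 0.29) and -0.30 (SE 0.27), none of them called. Both protease values lay below 0 while both called inhibitors were higher.

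Among stellate cell genes, no shared direction was seen. Lrat, the enzyme of retinyl ester storage, had 8.04, 10.6 and 14.6 CPM in db/db livers, against 4.75, 7.94 and 11.4 CPM in db/+ livers (log2 difference 0.55, SE 0.18, edgeR adjusted p = 0.0761). Des, desmin, the filament protein of rodent stellate cells, was lower, at 2.90, 3.70 and 5.16 CPM in db/db livers, against 4.53, 5.82 and 7.73 CPM in db/+ livers (-0.69, SE 0.17, edgeR adjusted p = 0.0311). Vim, vimentin, present in all mesenchymal cells and in leukocytes, was higher, at 19.2, 23.3 and 33.1 CPM in db/db livers, against 12.8, 14.7 and 22.6 CPM in db/+ livers (0.68, SE 0.17, edgeR adjusted p = 0.0358). Reln, reelin, which stellate cells secrete, had 18.4, 22.5 and 34.5 CPM in db/db livers, against 23.4, 29.8 and 40.9 CPM in db/+ livers (-0.35, SE 0.13, edgeR adjusted p = 0.118). Pdgfra, a PDGF receptor of fibroblasts, differed by -0.11 (SE 0.26) without a call.

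Pdgfrb, the PDGF receptor used to recognise stellate cells, could not be compared. Its CPM were 7.23 and 0.1004 with water, 0 and 0.149 with sucrose and 0 in both livers with brazzein in db/db mice. In db/+ mice they were 0 in both livers with water, 1.87 and 1.07 with sucrose and 0 and 1.42 with brazzein. It was thus listed at 0 in 6 of 12 livers while the companion genes Lrat and Reln were present in all 12. The gaps follow neither genotype nor drink, and in brain Pdgfrb had 4.56 to 14.8 CPM in every library.

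The contractile genes divided. Tagln, transgelin, an actin-binding protein of smooth muscle and myofibroblasts, had 1.02, 1.39 and 2.20 CPM in db/db livers, against 0.515, 0.721 and 1.25 CPM in db/+ livers (log2 difference 0.88, SE 0.20, edgeR adjusted p = 0.0238). It overlaps Pcsk7, which fell under 1 CPM in the 2 db/db livers on brazzein, where Tagln had 1.44 and 1.39 CPM. Acta2 had 0.603, 1.10 and 1.43 CPM in db/db livers, against 0.644, 0.858 and 1.26 CPM in db/+ livers, and was not called (0.21, SE 0.22, edgeR adjusted p = 0.571). The 2 groups of Acta2 overlapped almost fully.

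Postn and Sparc led the matricellular genes. Postn, periostin, a protein of remodelling collagen matrix, had 19.3, 21.1 and 22.7 CPM in db/db livers, against 5.68, 7.26 and 14.3 CPM in db/+ livers (log2 difference 1.35, SE 0.20, edgeR adjusted p = 0.00525). Sparc, which binds collagen and shapes its deposition, had 38.9, 44.1 and 52.6 CPM in db/db livers, against 19.4, 26.6 and 33.6 CPM in db/+ livers (0.76, SE 0.14, edgeR adjusted p = 0.0113). In CPM neither overlapped, and the 6 db/db values of Postn lay closer together than the 6 db/+ values. In FPKM the Postn groups did overlap, with the lowest db/db library at 4.77 and the highest db/+ library at 4.86. Counts per FPKM, which track the transcript length assigned to a gene, varied by a factor of 1.96 for Postn across 10 livers. The part of this in the Postn difference was not tested. Tgfb1 differed by 0.53 (SE 0.22, edgeR adjusted p = 0.142), and the thrombospondins, which bind latent TGFB1, by 0.60 (SE 0.24) for Thbs1 and -0.72 (SE 0.25) for Thbs2. These and Sparcl1, at 0.34 (SE 0.16), were not called.

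**Figure D2:**
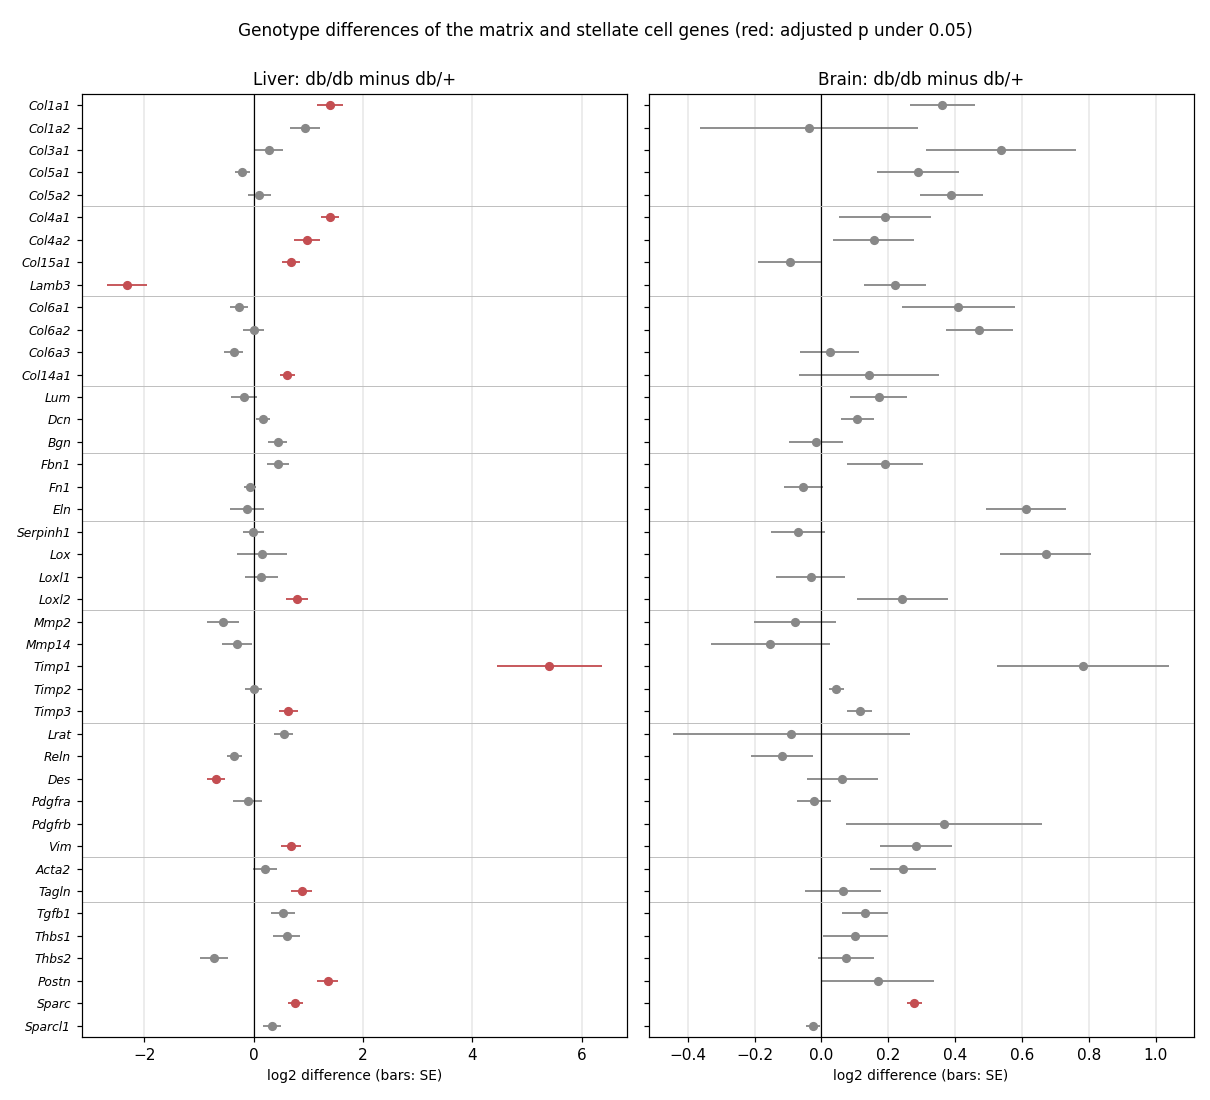
Log2 difference, db/db minus db/+, with its SE for each member in liver (left) and brain (right), on separate x scales, grouped by role from fibrillar collagens at the top to matricellular proteins at the bottom. Red points passed an adjusted p of 0.05, which in brain is Sparc alone, and the liver panel leaves out Pdgfrb, whose SE could not be estimated.

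The count of 12 higher members depended on which livers were included. Without the 4 livers on brazzein, the groups with the lowest replicate correlations, it was 4, namely Col1a1, Col4a1, Col4a2 and Postn, and 3 were lower, Des, Lamb3 and Reln. Leaving out the second db/db library on sucrose gave 5 higher members. It was 6 without the first db/db library on water or the first db/+ library on sucrose. It was 7 without the second db/db library on water, the first db/db library on sucrose, or either db/+ library on water, and 8 to 10 without each of the other 5. The lower count of 2 became 1, Lamb3, without any liver library other than the second db/db on water, where Mmp2 stood in for Des, the first db/+ on water or the second db/+ on brazzein. Col1a1, Col4a1, Lamb3, Postn, Sparc and Timp1 kept their call whichever single library was left out. Col4a2, Des, Loxl2 and Vim lost it in 10 of these 12 fits, Col15a1 and Timp3 in 9, Tagln in 4 and Col14a1 in 3.

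Within a drink, the 2 against 2 comparisons called few members. On water, db/db against db/+ livers called 0 of 42 by edgeR, where 1.51% of all genes were called. There 13 members and 19.6% of all genes had an unadjusted p under 0.05, and DESeq2 called 6 members and 9.65% of all genes. On sucrose only Lamb3 was called, lower in db/db (background 0.868%), with 10 members and 16.3% of all genes at an unadjusted p under 0.05 and 2 members and 7.75% of all genes called by DESeq2. On brazzein only Col15a1 was called, higher in db/db (background 1.58%), with 18 members and 17.5% of all genes at an unadjusted p under 0.05 and 13 members and 8.85% of all genes called by DESeq2. Col15a1 had 4.24 and 3.60 CPM in db/db livers on brazzein, against 0.986 and 1.66 CPM in db/+ livers on brazzein (log2 difference 1.56, SE 0.29, edgeR adjusted p = 0.0473). That call was made without the second db/+ library on brazzein and lost without each of the other 11, where the adjusted p was 0.0774 to 0.121. Col4a1 differed by 1.198 (SE 0.29) on water, 1.503 (SE 0.29) on sucrose and 1.47 (SE 0.29) on brazzein, with edgeR adjusted p of 0.0821, 0.0605 and 0.0531. Its difference was thus of like size on each drink.

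Lamb3, a chain of the laminin that anchors epithelia, set the drinks apart in db/db livers. It had 0.728 and 2.43 CPM on water, 0.383 and 0.336 CPM on sucrose and 30.4 and 28.6 CPM on brazzein in db/db livers. In db/+ livers it had 10.2 and 19.0 CPM on water, 36.01 and 24.8 CPM on sucrose and 6.67 and 2.67 CPM on brazzein. The order of the drinks was reversed between genotypes, with brazzein highest in db/db and lowest in db/+ livers. Brazzein against sucrose in db/db livers gave a log2 difference of 6.35 (SE 0.77, edgeR adjusted p = 0.0310), where 0.16% of all genes were called. The interaction of genotype with brazzein against sucrose was 9.06 (SE 1.00, edgeR adjusted p = 0.0345), where 0.0672% of all genes were called. On sucrose alone, db/db minus db/+ was -6.40 (SE 0.78, edgeR adjusted p = 0.0209).

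The Lamb3 genotype value of -2.31 (SE 0.37, edgeR adjusted p = 0.00723) averages these opposed drinks. On brazzein alone db/db minus db/+ was 2.66 (SE 0.65, edgeR adjusted p = 0.0920) and on water -3.20 (SE 0.66, edgeR adjusted p = 0.0628). The brazzein against sucrose call in db/db livers was lost, with adjusted p up to 0.201, without either db/db or either db/+ library on sucrose or without the second db/db library on brazzein. The interaction was lost without either db/db library on sucrose, the first db/+ library on sucrose, either db/+ library on water or the second db/db library on brazzein, with adjusted p up to 0.165. The value on sucrose was lost without either db/db or either db/+ library on sucrose. In these fits the log2 values stayed between 6.25 and 6.45 for brazzein against sucrose and between 8.53 and 9.84 for the interaction. With the replicate number as a block the adjusted p was 0.0761 and 0.0831.

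Counts per FPKM, which track the transcript length assigned to a gene, also moved for Lamb3. Relative to the median they were 0.302 and 0.833 in db/db livers on water and 0.804 and 0.582 on sucrose, against 1.123 and 1.134 in db/db livers on brazzein and 1.07 to 1.14 in db/+ livers on water and sucrose. The db/+ livers on brazzein are left out, since their replicate names are exchanged between the count and FPKM tables. The livers with few Lamb3 counts were thus also those with a shorter assigned length, and the part of this in the result was not tested. The companion chain Lama3 had 0.103, 0.216 and 0.548 CPM in db/db livers, against 1.17, 1.58 and 4.01 CPM in db/+ livers (log2 difference -2.96, SE 0.34, edgeR adjusted p = 0.00230). The neighbouring gene G0s2 had 477 and 151 CPM in db/db livers on brazzein, against 16.6 and 104 CPM in db/db livers on sucrose. Hsd11b1, a further neighbour, had 564 and 513 CPM in db/db livers on brazzein, against 365 and 443 CPM in db/db livers on sucrose. With water, where Lamb3 was at 0.73 and 2.4 CPM in db/db livers, G0s2 held 433 and 369 CPM and Hsd11b1 542 and 656 CPM. Neither neighbour was low there along with Lamb3, while G0s2 had its lowest values in the db/db livers on sucrose. Any link of either neighbour to Lamb3 was not tested. In db/+ livers, the brazzein values of each neighbour lay within the range of its sucrose values, while those of Lamb3 lay below. Both neighbours were chosen after their values were seen.

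**Figure D3:**
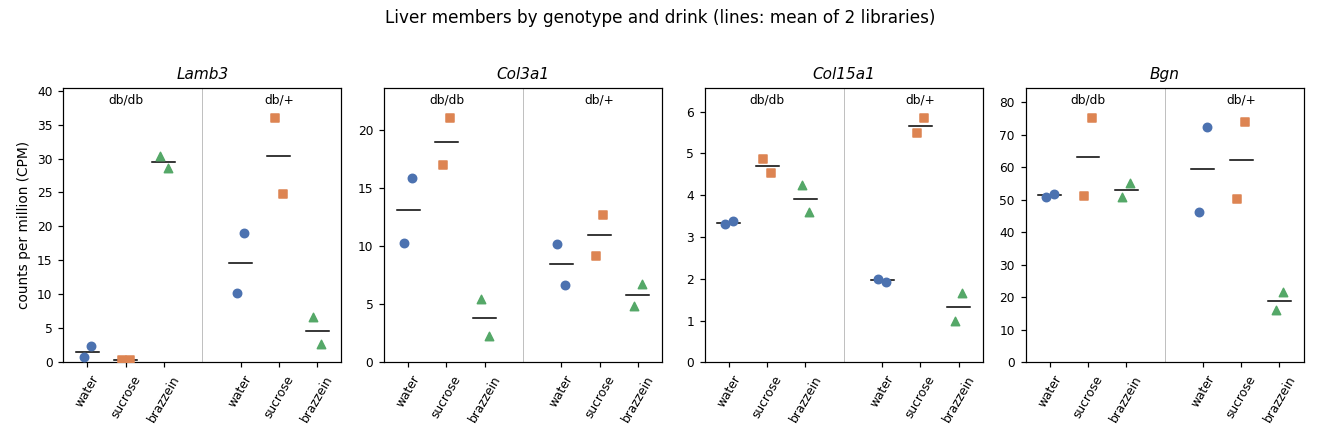
CPM (y axis, from 0) of Lamb3, Col3a1, Col15a1 and Bgn in livers of db/db mice (left of each panel) and db/+ mice (right) on water, sucrose and brazzein, with a line at the mean of 2 libraries. Lamb3 is near 30 CPM in db/db livers on brazzein and under 3 CPM in the other db/db livers, while Bgn is lowest in db/+ livers on brazzein.

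No member other than Lamb3 was called between drinks in liver by edgeR, where counts at an unadjusted p under 0.05 and by DESeq2 are set beside their own shares of all genes. In db/db livers, sucrose against water called 0 of 42 (background 0.00517%), with 1 member unadjusted (4.27% of all genes) and 0 with DESeq2 (0.424%). Brazzein against water called 0 in db/db livers (background 0.119%), with 5 unadjusted (8.57%) and 2 with DESeq2 (2.58%). Brazzein against sucrose in db/db livers, where Lamb3 was called, had 3 unadjusted (14.7%) and 2 with DESeq2 (6.4%). In db/+ livers, sucrose against water called 0 (background 0.0155%), with 2 unadjusted (5.98%) and 1 with DESeq2 (1.09%). Brazzein against water called 0 in db/+ livers (background 0.00517%), with 6 unadjusted (6.06%) and 1 with DESeq2 (0.891%). Brazzein against sucrose called 0 in db/+ livers (background 0.0207%), with 14 unadjusted (8.75%) and 3 with DESeq2 (2%). The interaction of genotype with sucrose against water called 0 (background 0.0155%), with 3 unadjusted (4.97%) and 0 with DESeq2 (0.499%), and that with brazzein against water 0 (background 0.0672%), with 7 unadjusted (6.22%) and 1 with DESeq2 (1.3%). The interaction with brazzein against sucrose, where Lamb3 was called, had 6 unadjusted (10.3%) and 2 with DESeq2 (2.1%).

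The uncalled values of Col3a1 and Bgn stood apart on brazzein in 1 genotype each. Those of Col15a1 stood apart on sucrose in db/+ livers. Col3a1 had 10.3 and 15.9 CPM on water, 17.0 and 21.1 CPM on sucrose and 5.44 and 2.24 CPM on brazzein in db/db livers (brazzein minus sucrose -2.31 on the log2 scale, SE 0.48, edgeR adjusted p = 0.1005). Bgn, biglycan, had 46.3 and 72.5 CPM on water, 50.3 and 74.0 CPM on sucrose and 16.0 and 21.5 CPM on brazzein in db/+ livers (brazzein minus sucrose -1.73, SE 0.30, edgeR adjusted p = 0.223). The brazzein libraries did not overlap the others of that genotype in either gene. Bgn was not alone in this among uncalled members of db/+ livers. There Mmp14 had 18.3 and 40.1 CPM on brazzein, against 60.4 to 87.4 CPM on the other drinks. Lrat had 4.98 and 4.75 CPM on brazzein, against 7.77 to 11.4 CPM on the other drinks. In db/db livers Bgn had 50.9 and 51.8 CPM on water, 51.3 and 75.2 CPM on sucrose and 51.0 and 55.2 CPM on brazzein, and Dcn had 128 and 150 CPM on water, 124 and 172 CPM on sucrose and 178 and 213 CPM on brazzein, its highest values. Col15a1 had 1.99 and 1.93 CPM on water, 5.48 and 5.86 CPM on sucrose and 0.986 and 1.66 CPM on brazzein in db/+ livers (brazzein minus sucrose -2.10, SE 0.30, edgeR adjusted p = 0.146). None of these differences passed the threshold with 2 libraries a group. Over the 42 members, the median log2 difference of brazzein minus sucrose was -0.07 in db/db livers, with 17 of 42 above 0 (all tested genes -0.03), and -0.68 in db/+ livers, with 2 above 0 (all tested genes 0.00). For brazzein minus water, 32 of 42 lay above 0 in db/db livers (49.4% of all tested genes) and 5 in db/+ livers (47.3%). With library sizes unscaled by TMM these counts were 29 and 6, and those for brazzein minus sucrose were 9 and 2.

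Brain gave a single call. Sparc, made by astrocytes and vessel cells in brain, had 866, 904 and 927 CPM in db/db brains, against 683, 756 and 798 CPM in db/+ brains (log2 difference 0.28, SE 0.02, edgeR adjusted p = 0.0379). The groups did not overlap, and 0.00846% of 23653 tested genes, 2 in number, were called. The call stood whichever library was left out, but not with the replicate number as a block (edgeR adjusted p = 0.106) or in a fit of all 24 libraries (edgeR adjusted p = 1.00). DESeq2 called 6 members and 3.17% of all genes. Including Sparc, 14 members had an unadjusted p under 0.05, all higher in db/db brains, as had 13.8% of all genes in either direction. On water alone Sparc had 917 and 927 CPM in db/db brains, against 688 and 683 CPM in db/+ brains (0.43, SE 0.04, edgeR adjusted p = 0.04996, background 0.00846%), and that call was lost without any of 9 libraries, standing only without either db/+ library on sucrose or the second db/+ library on water. On water 3 members had an unadjusted p under 0.05 (6.79% of all genes) and DESeq2 called 1 (0.494%).

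Eln, Lox and Col5a2 separated the genotypes in brain without an adjusted call. Eln, elastin of vessel walls, had 9.69, 11.2 and 15.0 CPM in db/db brains, against 5.91, 8.10 and 8.23 CPM in db/+ brains (log2 difference 0.61, SE 0.12, edgeR adjusted p = 0.138). Lox, which crosslinks elastin and collagen, had 1.32, 1.42 and 1.83 CPM in db/db brains, against 0.765, 0.884 and 1.21 CPM in db/+ brains (0.67, SE 0.14, edgeR adjusted p = 0.146). Col5a2 had 5.04, 5.55 and 6.93 CPM in db/db brains, against 3.99, 4.29 and 4.997 CPM in db/+ brains (0.39, SE 0.09, edgeR adjusted p = 0.170). With Sparc, 4 of 42 members had no overlap and all 4 were higher in db/db, where 0.871% of all genes separated higher and 0.989% lower. Choroid plexus markers summed to 1142 to 1320 CPM in db/db brains, against 759 to 1073 CPM in db/+ brains. The hepatocyte list, which shares only Ttr with the choroid plexus list, gave nearly the same sums in brain. They were 1147 to 1319 CPM in db/db and 786 to 1072 CPM in db/+ brains. The sums of astrocyte, brain endothelial, pericyte, vascular fibroblast and erythroid markers overlapped between genotypes. In each of these lists 0 markers were called. The part of cell composition in the members' values was not tested.

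Col1a1 had 7.09, 9.36 and 12.2 CPM in db/db brains, against 6.59, 7.53 and 8.39 CPM in db/+ brains (log2 difference 0.36, SE 0.10, edgeR adjusted p = 0.189). Col1a2 was erratic, with 12.6 and 3.23 CPM on water, 28.6 and 15.6 CPM on sucrose and 29.96 and 21.4 CPM on brazzein in db/db brains, against 11.5 to 23.1 CPM in db/+ brains. The ratio of Col1a1 to Col1a2 was accordingly 3.08 in the second db/db brain on water and at most 0.688 in the other 11. Timp1 had 0.476, 0.671 and 1.05 CPM in db/db brains, against 0.255, 0.338 and 0.650 CPM in db/+ brains (0.78, SE 0.26, edgeR adjusted p = 0.248), beside 503 to 563 CPM of the gene Syn1 around it.

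**Figure D4:**
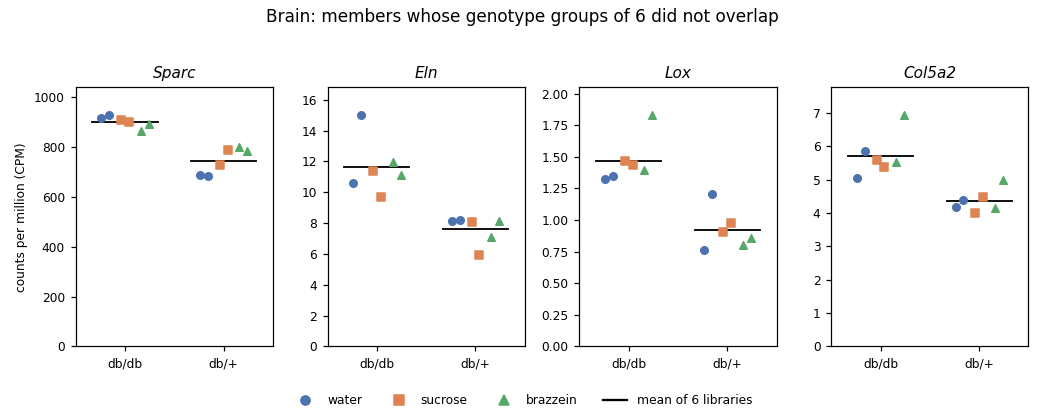
CPM (y axis, from 0) in 12 brain libraries of Sparc, Eln, Lox and Col5a2, db/db left of db/+, with points coloured by drink and a line at the mean of 6 libraries. The lowest db/db value lies above the highest db/+ value in each panel, by the narrowest margin for Col5a2, 5.04 against 4.997 CPM.

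No brain comparison of drinks called a member by edgeR. In db/db brains, sucrose against water called 0 of 42 (background 0.0%), with 5 members unadjusted (7.2% of all genes), brazzein against water 0 (background 0.0%), with 5 unadjusted (4.82%), and brazzein against sucrose 0 (background 0.00846%), with 5 unadjusted (5.36%). In db/+ brains, each with a background of 0.0%, sucrose against water called 0, with 4 unadjusted (4.72%), brazzein against water 0, with 1 unadjusted (4.86%), and brazzein against sucrose 0, with 2 unadjusted (3.18%). The interactions of genotype with drink called 0 (background 0.0% each), with 7 unadjusted for sucrose against water (6.39%), 3 for brazzein against water (5.5%) and 6 for brazzein against sucrose (4.68%). DESeq2 called 0 members in these 9 comparisons. It called 0.582%, 0.321% and 0.415% of all genes for the db/db drink comparisons in the order above, 0.256%, 0.237% and 0.155% for those in db/+ brains, and 0.465%, 0.219% and 0.323% for the interactions. Genotype on sucrose called 0 members (background 0.0%), with 9 unadjusted (9.32%) and 1 with DESeq2 (1.46%), and genotype on brazzein 0 (background 0.0%), with 13 unadjusted (8.15%) and 2 with DESeq2 (0.769%).

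The members divided by tissue. In a fit of all 24 libraries, 16 members were higher and 20 lower in liver than in brain, with a background of 33.9% of 25725 genes higher and 50.6% lower, and a median of all genes of -0.61 on the log2 scale. Lrat was among the most liver-weighted, at 1.53 ± 0.423 FPKM in db/db and 0.953 ± 0.295 FPKM in db/+ livers, against 0.0305 ± 0.0101 and 0.0311 ± 0.0144 FPKM in db/db and db/+ brains (SD, n = 6 each). Sparcl1, a synapse-forming astrocyte protein, was at the other end, at 1.56 ± 0.279 and 1.10 ± 0.180 FPKM in db/db and db/+ livers, against 645 ± 15.4 and 645 ± 17.4 FPKM in db/db and db/+ brains. The log2 difference, liver minus brain, was 6.16 (SE 0.23) for Lrat, 5.46 (SE 0.15) for Col14a1, 4.94 (SE 0.07) for Fn1 and 3.36 (SE 0.08) for Dcn. It was -8.02 (SE 0.09) for Sparcl1, -4.85 (SE 0.09) for Timp2 and -3.59 (SE 0.08) for Sparc. With library sizes unscaled by TMM, the median of all genes moved by a further -0.96, and Col4a1, Col15a1, Col6a3 and Tgfb1, called higher in liver, fell below 0, as did the uncalled Col1a1, Col1a2, Mmp2 and Tagln.

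**Figure D5:**
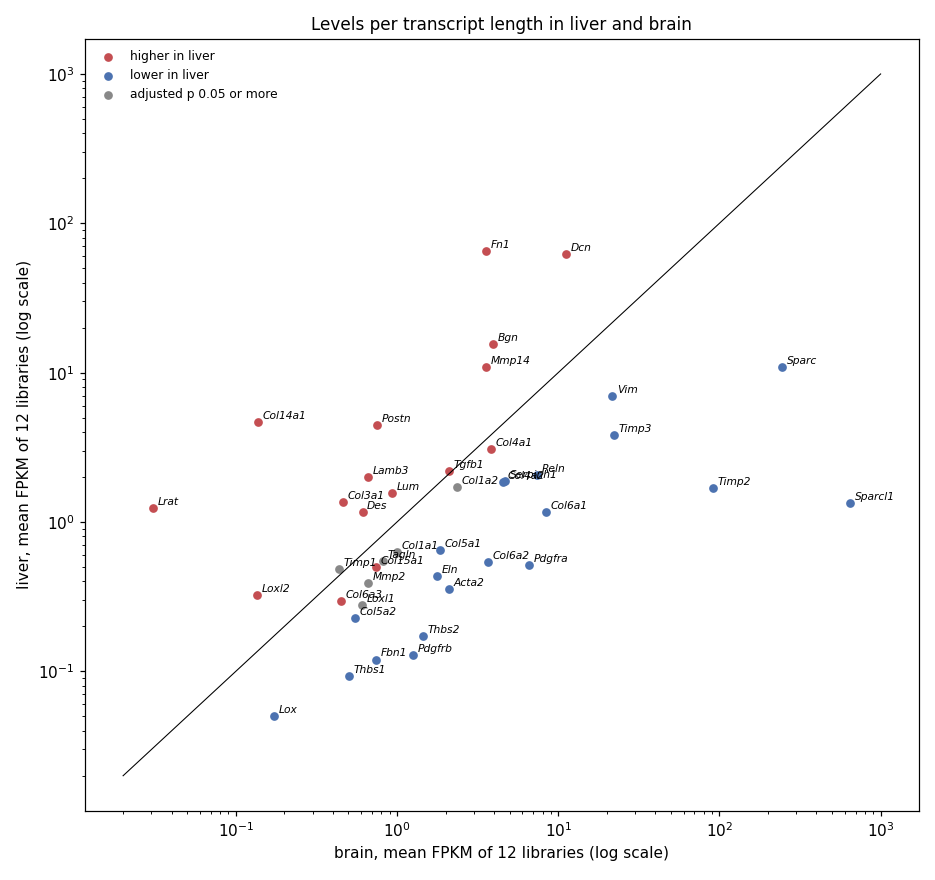
Mean FPKM over 12 libraries of each member in liver (y axis, log scale) against brain (x axis, log scale), with red and blue for members called higher and lower in liver and a line of equal levels. Lrat, Col14a1, Fn1 and Dcn lie above the line, and Sparcl1, Timp2 and Sparc far below it. Colours follow the edgeR test on TMM-scaled counts, a scale other than FPKM, so the red Col4a1, Col15a1 and Col6a3 lie below the line.

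The genotype difference itself differed between liver and brain for 9 members. The log2 difference in liver minus that in brain was above 0 for Timp1 (4.83, SE 0.98), Col4a1 (1.21, SE 0.23), Postn (1.19, SE 0.27), Col1a1 (1.05, SE 0.26), Tagln (0.82, SE 0.22), Col15a1 (0.79, SE 0.18) and Sparc (0.49, SE 0.15). It was below 0 for Lamb3 (-2.53, SE 0.39) and Des (-0.74, SE 0.20). The edgeR adjusted p ran from 0.00115 for Lamb3 to 0.0467 for Sparc, against a background of 5.41% of genes above and 4.34% below 0. The 6 members other than Sparc, Des and Tagln kept the call whichever of the 24 libraries was left out. Sparc lost it in 20 of these 24 fits, Des in 16 and Tagln in 10. In the separate fits of each tissue, Sparc had a called difference in both, the larger in liver. The fit of all 24 libraries did not call it in brain.

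Related genes of the same pathways, listed by role, moved in both directions in liver. Of all tested genes, 7.91% were called higher and 7.27% lower, a background that applies to every list and marker count below. The counts were not tested against it. Of 18 tested other collagen chains 0 were higher and 4 lower, among them Col11a2, at 0.188, 0.592 and 0.854 CPM in db/db livers, against 1.43, 1.69 and 2.79 CPM in db/+ livers. Of 14 other laminin and basement membrane genes 2 were higher and 1 lower. Nid1, nidogen, which links laminin to collagen IV, had 12.2, 18.5 and 33.1 CPM in db/db livers, against 2.98, 4.29 and 5.94 CPM in db/+ livers (log2 difference 2.14, SE 0.20, edgeR adjusted p = 0.00109). Lamc1, a widely used laminin chain, was 0.66 higher (SE 0.12, edgeR adjusted p = 0.0130). Nid1 and Lamc1 were thus higher, as Col4a1 and Col4a2 were. Lama3 was lower over the drinks, as Lamb3 was, but stayed at or under 0.548 CPM in every db/db liver, including those on brazzein where Lamb3 had 30.4 and 28.6 CPM.

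Other proteases and inhibitors gave 6 higher and 3 lower of 25. Mmp12, the macrophage elastase, had 0.0658, 8.02 and 14.9 CPM in db/db livers, against 0, 0 and 0.261 CPM in db/+ livers. Serpine2, a secreted inhibitor of serine proteases, was lower, with a log2 difference of -2.96 (SE 0.22, edgeR adjusted p = 0.000504). Of 40 TGF-beta and BMP pathway genes 2 were higher and 3 lower. Tgfbr2, the ligand-binding TGFB receptor, had 28.1, 35.4 and 42.9 CPM in db/db livers, against 8.63, 13.0 and 16.5 CPM in db/+ livers (1.496, SE 0.15, edgeR adjusted p = 0.00147), and Bambi, a decoy receptor, differed by -0.75 (SE 0.18, edgeR adjusted p = 0.0290).

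Of 24 other matricellular genes and glycoproteins 3 were higher and 2 lower, led by Lgals1, a galectin, at 182, 222 and 301 CPM in db/db livers, against 10.7, 22.7 and 27.2 CPM in db/+ livers (log2 difference 3.52, SE 0.23, edgeR adjusted p = 0.000304). Collagen maturation enzymes gave 3 higher and 2 lower of 24, among them Tgm2, the matrix transglutaminase, higher by 0.88, and P4ha1, a collagen prolyl hydroxylase, at -0.97. The other lists gave 5 higher and 2 lower of 25 PDGF, CTGF and fibrogenic signals, 2 and 0 of 20 myofibroblast and smooth muscle genes, and 2 and 1 of 21 matrix receptors. In brain, 0 genes of these 10 lists were called between genotypes by edgeR, where 0.00846% of all tested genes were called.

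Among 22 tested other stellate cell genes, db/db livers had 3 higher and 2 lower. Rgs5 was higher, at 32.1, 39.1 and 50.0 CPM in db/db livers, against 13.6, 23.8 and 26.7 CPM in db/+ livers (log2 difference 0.88, SE 0.15, edgeR adjusted p = 0.00870). Hand2, a transcription factor of quiescent stellate cells, was lower, at 4.18, 5.34 and 5.80 CPM in db/db livers, against 7.20, 9.05 and 13.3 CPM in db/+ livers (-0.91, SE 0.18, edgeR adjusted p = 0.0144). A list of 13 stellate cell markers summed to 208 to 261 CPM in db/db livers and 167 to 301 CPM in db/+ livers, with 2 markers higher, Rgs5 and Ngfr, and 2 lower, Des and Hand2. The summed stellate level thus overlapped between genotypes.

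Marker genes of other liver cells also differed by genotype. Of 6 portal fibroblast markers, Gas6, Fbln2 and Entpd2 were higher, and the list summed to 51.5 to 78.8 CPM in db/db livers, against 13.3 to 45.2 CPM in db/+ livers. Most of that sum was Gas6, with means of 52.8 CPM in db/db and 17.1 CPM in db/+ livers, and the uncalled Thy1, Mfap4 and Eln differed by -0.83, -1.27 and -0.13 on the log2 scale. Of 7 Kupffer cell and macrophage markers only Cd68 was higher (88.0 to 191 CPM summed in db/db, 54.0 to 228 CPM in db/+), and of 6 sinusoidal and vessel endothelial markers only Lyve1 (63.5 to 130 CPM in db/db, 36.1 to 90.4 CPM in db/+). Of 5 erythroid markers the 4 globins were higher, with sums of 1101 to 3708 CPM in db/db and 659 to 1214 CPM in db/+ livers. Of 6 smooth muscle markers Tagln was higher (3.05 to 6.53 CPM summed in db/db, 2.46 to 4.88 CPM in db/+), of 5 tested neutrophil markers S100a9 (3.23 to 11.4 CPM in db/db, 0.326 to 2.11 CPM in db/+), and of 6 hepatocyte markers Serpina1a was lower. Mesothelial markers summed to at most 5.72 CPM and cholangiocyte markers to at most 9.13 CPM in any liver, with 0 called. The share of mitochondrial ribosomal RNA, was 0.263% to 0.336% in db/db livers and 0.578% to 1.29% in db/+ livers. The part of these differences in the member genes' values was not tested.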

How the data were processed

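Per the labels' protocols, TRIzol RNA underwent poly(A) enrichment, and libraries were made with the NEBNext Ultra II RNA kit, which does not mark strand. Reads were demultiplexed with bcl2fastq and the build is GRCm39, per the submitters' processing notes. No aligner or counter is named in the sources used here. The deposited values are expected counts per gene name, stored as whole numbers and used as deposited. The authors also deposited an FPKM table, used only for levels between genes and for counts per FPKM, and 24 further columns of that table were not used. Groups were taken from the sample titles, since the genotype entry contradicts the title for 12 of 24 samples.

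Counts were tested with edgeR 4.0.16 (R 4.3.3; quasi-likelihood test, TMM factors, filterByExpr, Benjamini-Hochberg adjustment over all genes tested, threshold 0.05), in 1 fit of 6 groups of 2 per tissue, and in 1 fit of all 24 libraries for tissue differences. CPM use TMM-scaled library sizes. Genotype values average the 3 drinks. The labels do not say that replicates came from separate animals, so p-values measure only the spread between these libraries. The tests were tried on simulated counts. Alternatives were RLE factors, library size alone, no filter, a replicate block, DESeq2 1.42.0, leaving out each library and, chosen after seeing the data, leaving out the 4 livers on brazzein. The 42 members, the related lists and the markers were chosen with earlier results of these data known. Every member could be named, and up to 4 genes per related list, those called in the liver genotype comparison with a mean of at least 1 CPM and the greatest absolute log2 difference. The range of total counts per tissue is given in the report, and at this depth a gene under 1 CPM rests on few reads.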

Additional observations from a re-analysis of the deposited data

Results flagged for a closer look

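These results stand out because the genotype difference itself differed between drinks or between tissues, by a test of that difference (edgeR, Benjamini-Hochberg adjustment). For Lamb3 the interaction of genotype with brazzein against sucrose in liver was 9.06 on the log2 scale (adjusted p = 0.0345). The log2 genotype difference in liver minus that in brain was 4.83 for Timp1, 1.21 for Col4a1, 1.19 for Postn, 1.05 for Col1a1, 0.82 for Tagln, 0.79 for Col15a1 and 0.49 for Sparc. It was -0.74 for Des and -2.53 for Lamb3. The Timp1 value rests on db/+ livers at or near 0.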

How the results depend on the processing

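Signs of some members changed with the scaling. Those of liver against brain, the liver genotype comparison and tissue by genotype are named first. With library size alone these were Col4a1, Col15a1, Col6a3 and Tgfb1, called higher in liver against brain, and the uncalled Col1a1, Col1a2, Mmp2 and Tagln there, Fn1, Eln, Serpinh1 and Pdgfra in the liver genotype comparison, and Fn1, Mmp14, Timp2, Pdgfra and Acta2 in tissue by genotype. RLE factors and DESeq2 turned Col1a1 and Mmp2 in liver against brain and Serpinh1 in the liver genotype comparison, and no filter turned Mmp2, Serpinh1 and, in tissue by genotype, Fn1. Library size alone also turned Col6a2, Col14a1, Lum, Lox, Loxl2, Thbs2, Sparc and Sparcl1 for brazzein against sucrose in db/db livers, none of them called. It turned 5 members each for sucrose against water in db/db livers and for genotype on water in liver. Fewer turned in the other comparisons within or between drinks. In the liver genotype comparison, 4 members were higher without the 4 livers on brazzein, and 1 was lower with library size alone or no filter. Leaving out 1 library gave 5 to 10 higher and 1 to 2 lower. In liver, members called on water numbered 1 with library size alone and 6 with DESeq2 (0 to 1 leaving out a library), on sucrose 2 and 2 (0 to 3), and on brazzein 2 with library size alone, 0 with no filter, 2 with the replicate block and 13 with DESeq2 (0 to 1). Brazzein against sucrose in db/db livers gave 0 with the replicate block and 2 with DESeq2 (0 to 2), and its interaction 0 and 2 (0 to 1). DESeq2 called 2 for brazzein against water in db/db livers, 1 each for sucrose and brazzein against water and 3 for brazzein against sucrose in db/+ livers (0 to 1), and 1 for the interaction of brazzein against water. In brain, the genotype comparison gave 0 with the replicate block, 6 with DESeq2 and 0 in a fit of all 24 libraries (1 leaving out a library). Genotype on water gave 0 with RLE factors, no filter or the block (0 to 1), and DESeq2 called 1 on sucrose and 2 on brazzein (0 to 1). Brazzein against water in db/+ brains and the interaction of sucrose against water gave 0 to 1. Liver against brain gave 14 to 15 higher and 20 to 21 lower. Tissue by genotype gave 1 lower with library size alone or no filter and 5 with DESeq2 (5 to 10 higher and 1 to 3 lower leaving out a library). The cause was not tested. Where a library is left out, its lone partner is assumed to vary like the other groups.

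Within each tissue, the replicate numbers showed no sign of pairing the groups. Deviations of same-numbered libraries correlated at -0.123 to 0.0903 in liver and -0.0559 to 0.0561 in brain, and 0 of 15 pairs of groups passed 0.1 in either tissue. Whether same-numbered liver and brain libraries came from the same mouse was not tested. The fits of all 24 libraries treat them as independent. The replicate block called 15 members in the liver genotype comparison instead of 14. With 2 libraries a group, differences within a drink had to be wide to pass.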

Other observations

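Further genes of the related lists were called between genotypes in liver (edgeR, Benjamini-Hochberg adjustment). Nt5e, the ecto-enzyme that makes adenosine, had 20.3, 26.2 and 38.5 CPM (lowest, median and highest of 6) in db/db livers, against 4.83, 5.61 and 8.14 CPM in db/+ livers (log2 difference 2.21, SE 0.16, adjusted p = 0.000447). Lgals3, a galectin of macrophages, had 18.1, 21.8 and 42.5 CPM in db/db livers, against 2.16, 3.65 and 10.1 CPM in db/+ livers (2.59, SE 0.33, adjusted p = 0.00326). Neither gene's groups overlapped. Cd36, a scavenger receptor that binds fatty acids and thrombospondin, had 282, 319 and 446 CPM in db/db livers, against 54.5, 90.9 and 231 CPM in db/+ livers. Sdc2, a heparan sulphate proteoglycan of the cell surface, was lower, at 102, 104 and 115 CPM in db/db livers, against 157, 165 and 209 CPM in db/+ livers (-0.70, SE 0.08, adjusted p = 0.00253). Tcf21, a transcription factor of stellate cells, was also lower, at 2.10, 3.00 and 4.03 CPM in db/db livers, against 4.21, 4.96 and 8.01 CPM in db/+ livers.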
